A study of Mus musculus with 7 samples.

Results

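The Iroquois genes were described here in 7 ATAC-seq libraries of mouse face and tooth tissue. The members are the 6 genes Irx1 to Irx6 out of 20665 autosomal protein-coding genes in the RefSeq annotation. They were taken by name, and every peak of open chromatin within 100 kb of the outer genes of a cluster, or between its genes, was assigned to them. The IrxA cluster, with Irx1, Irx2 and Irx4, spanned chr13:71858232-73369622 and the IrxB cluster, with Irx3, Irx5 and Irx6, spanned chr8:91698511-92780956, in build GRCm38 (mm10). After the peaks of all libraries were joined where they shared 1 bp or more, 208 of 128642 autosomal regions lay in the clusters, 91 in IrxA and 117 in IrxB.

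Iroquois genes encode homeodomain transcription factors of the TALE class, which bind DNA through a homeodomain with a short loop insertion and pattern the embryo along its axes. Mammals carry a duplicated pair of 3-gene clusters, in which Irx1 and Irx3, Irx2 and Irx5, and Irx4 and Irx6 are the corresponding members. Large stretches without other protein-coding genes separate them and hold many enhancers. Irx1 is known from the outer enamel epithelium of the tooth, Irx2 from surface and dental epithelium, Irx3 and Irx5 from limb, heart and craniofacial patterning, Irx4 from the ventricular heart muscle, and Irx6 from the retina.

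ATAC-seq marks open chromatin by the cuts of a transposase. At embryonic day 11.5, first pharyngeal arch ectoderm, from which the epithelium of jaws and teeth derives, was separated from its mesenchyme by enzyme (2 libraries). Sox2-positive dental epithelial stem cells were sorted at postnatal day 2 from the labial cervical loop of the lower incisor, in Sox2-GFP mice whose own Sox2 promoter drives the fluorescent protein (2 libraries), and whole lower incisor, lower first molar and upper first molar were taken at the same age (1 library each). The labels name no strain for the other mice and no treatment, and they do not say whether replicates came from separate animals or how many were pooled. P-values therefore measure only the spread between these libraries, and the 3 whole teeth have no replicate check.

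The lists held 80850 and 49719 autosomal peaks in the ectoderm replicates, 41829 and 38326 in the Sox2-positive replicates, and 62074, 68877 and 67193 in incisor, lower and upper molar. The sequencing depth behind them is unknown. Because the lengths differ, the main counts are also given for equal lists, the 38000 autosomal peaks of each library with the highest −log10 p. Of 8 epithelial marker genes, 7 had a peak at the annotated start in every full list, all but Trp63. In the equal lists the incisor had 5, without Epcam and Grhl2 as well, and every other library kept 7. Of 8 mesenchyme markers, 5 and 6 had one in the ectoderm replicates, where Pdgfra and Lum had none, 8 and 7 in the Sox2-positive replicates and 8 in each whole tooth. The Sox2-positive libraries had start peaks at mesenchyme genes beside those of the labelled epithelium. Of all autosomal protein-coding genes, 68.2% and 65.9% had a start peak in the full ectoderm lists and 59.7% and 58.4% in the Sox2-positive ones. Incisor, lower and upper molar had 62.2%, 63.6% and 63.5%. A start peak is thus common and does not by itself show a cell type. Start peaks were found at 1 or 2 of 5 blood and immune markers, 1 to 3 of 5 endothelial markers (0 in both molars and 1 or 2 in the other equal lists) and 2 of 4 neural markers on the autosomes. Whole teeth mix tissues, and in such bulk libraries fewer cells of a type and less open chromatin per cell cannot be told apart.

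The upstream sequences of Irx3, Irx2 and Irx4 are shown because the promoter table used here gives these 3 members, and because peaks covered those of Irx3 and Irx2 in most libraries and that of Irx4 in the ectoderm. Each is the 250 bases before the RefSeq start (build GRCm38.p6), 5′ to 3′ on the strand of the gene, which is minus for Irx3 (chr8:91801655-91801904) and plus for Irx2 (chr13:72628570-72628819) and Irx4 (chr13:73260247-73260496). Capitals mark the GC box GGGCGG and, at position 53 of Irx2, the TFAP2 motif GCCNNNGGC.
Irx3: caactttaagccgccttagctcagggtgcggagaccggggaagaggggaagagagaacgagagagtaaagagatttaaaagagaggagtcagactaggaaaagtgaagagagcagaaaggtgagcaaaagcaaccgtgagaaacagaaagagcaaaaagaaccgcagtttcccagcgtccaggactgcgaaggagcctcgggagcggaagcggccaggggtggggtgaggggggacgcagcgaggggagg
Irx2: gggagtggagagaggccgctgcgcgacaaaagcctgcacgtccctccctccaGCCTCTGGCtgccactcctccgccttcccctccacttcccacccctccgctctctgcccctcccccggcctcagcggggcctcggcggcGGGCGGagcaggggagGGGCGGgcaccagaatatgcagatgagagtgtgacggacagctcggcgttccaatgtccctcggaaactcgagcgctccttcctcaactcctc
Irx4: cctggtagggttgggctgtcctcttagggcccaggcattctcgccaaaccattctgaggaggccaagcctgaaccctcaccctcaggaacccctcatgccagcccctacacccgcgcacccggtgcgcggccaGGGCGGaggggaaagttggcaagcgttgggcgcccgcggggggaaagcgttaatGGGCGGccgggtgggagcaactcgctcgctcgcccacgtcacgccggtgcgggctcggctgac

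All 3 were richer in CpG than the median of 6 over 32851 RefSeq promoters, with 13 CpG in Irx3, 19 in Irx2 and 22 in Irx4. Their GC content was 56%, 68.4% and 68.8%. The GC box occurred at positions 142 and 158 of Irx2 and at 134 and 188 of Irx4, counted from the 5′ end, and in 32.7% of all promoter windows of this length. The TFAP2 motif occurred in 13.7% of them. On either strand none of the 3 held TATAAA (12.4% of promoters), CTTTGAT of LEF/TCF factors (3.21%), GACCACCCA of GLI factors (0.225%), the Iroquois motif ACANNTGT (6.31%) or the homeobox motif TAATTA (4.84%). None of the motifs overlapped, and a match is a description of letters only.

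Peaks covered all 250 of these bases of Irx3 and of Irx2 in 6 libraries, all but Sox2-positive replicate 1. The peak that replicate did have at Irx3 lay farther upstream, at chr8:91801933-91802227. Of the Irx4 bases, 223 were covered in ectoderm replicate 1 and 250 in ectoderm replicate 2. No postnatal library covered any of them.

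The starts of the IrxB genes carried a peak in every library, while those of the IrxA genes carried one in 3 (Irx1), 6 (Irx2) and 2 (Irx4) of the 7. A start counted as open where a peak touched the 1 kb on either side of it, or of either end of the gene body for Irx1, Irx5 and Irx6. This either-end rule is looser than the single start used for Irx2, Irx3 and Irx4, so these counts are not on 1 scale. Near the far end of Irx4, chr13:73268421-73269304 had a peak in 6 of the equal lists, all but the incisor. In the full lists 1 region in the Irx4 body was open in all 7 libraries. With summit windows of 200 bp Irx5 had a start peak in 6 libraries. The value below is the authors' signal, the area of the highest such peak, which is read within a list and not between libraries, and no deposited peak is below 200.

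Irx1, a regulator of the outer enamel epithelium, had signals of 1420 and 909 in the ectoderm replicates and 343 in the upper molar, with no peak in the other 4 libraries. The replicate values came from opposite ends of the gene. The upper end, chr13:71963600-71964826, had 1420, 837 and 343 in these libraries, and the lower end, chr13:71958631-71959843, had 831 and 909 in the ectoderm replicates. Irx4 had signals of 1097 and 820 in the ectoderm replicates, and no peak in any of the 5 postnatal libraries. Irx2 had 5250 and 4681 in the ectoderm replicates, no peak and 586 in the Sox2-positive replicates, and 1637, 3002 and 2879 in incisor, lower and upper molar. The outer genes of the cluster were therefore open at their starts mainly in the ectoderm libraries, and Irx2 between them was open in all whole teeth.

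Irx3 had start signals of 4543 and 4485 in the ectoderm replicates, 332 and 2563 in the Sox2-positive replicates, and 3280, 3125 and 3004 in incisor, lower and upper molar. Irx5, its neighbour in limb and heart patterning, had 7936 and 7799, then 3178 and 7021, then 9733, 8782 and 8728 in the same order. Irx6 had 1949 and 1742, then 289 and 384, then 835, 970 and 1052. The Irx5 peak was among the strongest anywhere: by signal it ranked 135 and 158 in the ectoderm lists, 1188 and 78 in the Sox2-positive lists, and 50, 70 and 60 in incisor, lower and upper molar. This peak also lay over the end of the long non-coding RNA gene Crnde, and it cannot be assigned to either gene. The Sox2-positive replicates did not match at Irx2, Irx3 and Irx5, where replicate 1 had no peak or a weaker rank.

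Within each list Irx5 stood first of the 6 genes. Irx2 stood above Irx3 in both ectoderm lists and below it in the 4 postnatal lists that held both. Signal is an area and grows with peak width. By −log10 p, Irx2 was above Irx3 in both ectoderm lists (8.29 against 7.96 and 7.75 against 7.38) and also in the lower molar (7.67 against 6.54) and upper molar (7.58 against 6.25), and below it in the incisor (5.84 against 6.32) and Sox2-positive replicate 2 (4.11 against 6.50). The lower place of Irx2 in the molars was thus not kept on this second scale.

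**Figure D1:**
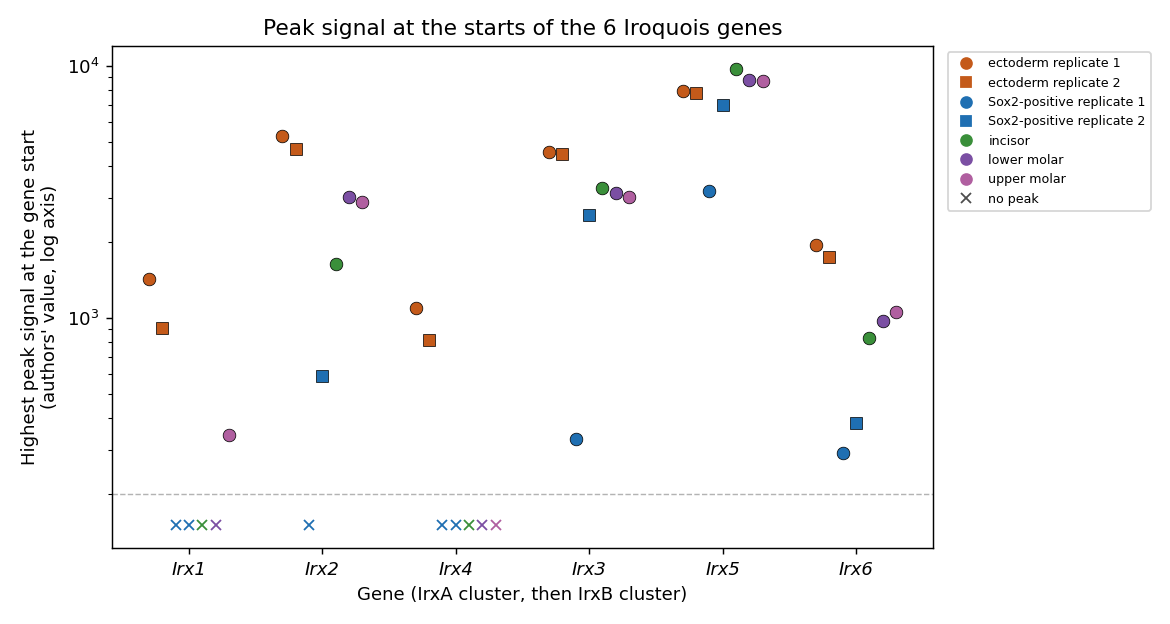
Highest peak signal (authors' value, log axis) within 1 kb of the start of each Iroquois gene, 1 point per library, with crosses below the dashed line at 200 for libraries without a peak. Irx5 is the highest gene in each library, and Irx4 has points in the 2 ectoderm libraries only.

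All 6 genes had a start peak in each ectoderm replicate, against 68.2% and 65.9% of all autosomal protein-coding genes. The Sox2-positive replicates had 3 and 4 of the 6 (background 59.7% and 58.4%). Incisor and lower molar had 4 each (62.2% and 63.6%) and the upper molar 5 (63.5%). Irx3, Irx5 and Irx6 were open in all 7 libraries, 3 of 6 genes, beside 55.7% of all genes in the full lists and 51.4% in the equal lists. A start peak in both ectoderm libraries and in no postnatal one was found at 2.92% of all genes and, of the 6, at Irx4. In the equal lists it was found at 2.88% of all genes and, of the 6, at Irx1, while the Irx4 start passed in 1 ectoderm library.

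The IrxA cluster as a whole was denser in peaks in the ectoderm. The cluster held 71 and 45 peaks in the ectoderm replicates, 19 and 14 in the Sox2-positive replicates, 17 in the incisor, 37 in the lower molar and 44 in the upper molar. Per 10000 peaks of a list these were 8.78 and 9.05, then 4.54 and 3.65, then 2.74, 5.37 and 6.55. The ectoderm replicates were above every other library on this scale, and the incisor was lowest. Ectoderm averaged 8.92 ± 0.190 (SD, n = 2) and Sox2-positive cells 4.10 ± 0.629 (SD, n = 2) per 10000, a difference of 4.82 and a ratio of 2.18. The groups did not overlap, and the exact permutation test over libraries gave its smallest possible two-sided p of 0.333. In the full lists every Dlx and Hox cluster compared below reached the same p, so such a separation was not particular to IrxA. Among the equal lists the cluster held 33 and 34, then 16 and 14, then 12, 22 and 25 peaks, a ratio of 2.23 between the same groups (exact permutation p = 0.333).

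The IrxB cluster was densest in the whole teeth. It held 62 and 26 peaks in the ectoderm replicates, 29 and 25 in the Sox2-positive replicates, and 56, 67 and 62 in incisor, lower and upper molar. Per 10000 peaks these were 7.67 and 5.23, then 6.93 and 6.52, then 9.02, 9.73 and 9.23. The 3 whole teeth stood above the other 4 libraries, and the ectoderm replicates lay on either side of the Sox2-positive ones. Ectoderm averaged 6.45 ± 1.72 (SD, n = 2) and Sox2-positive cells 6.73 ± 0.290 (SD, n = 2), a difference of -0.279 with an exact permutation p of 1. Without ectoderm replicate 2 this difference was 0.941.

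With lists of equal length the ectoderm replicates were closer, with 18 and 14 IrxB peaks against 25 and 24 in Sox2-positive cells, and 39, 36 and 38 in incisor, lower and upper molar. The groups then did not overlap, with a ratio of 0.653 of ectoderm to Sox2-positive cells (exact permutation p = 0.333). At this length every Dlx and Hox cluster compared below, except Dlx1-Dlx2, reached the same p. The IrxA share of all peaks in both clusters was accordingly 64.7% and 70.8% in the ectoderm replicates, 39.0% and 36.8% in the Sox2-positive replicates, 23.5% in the incisor, 37.9% in the lower molar and 39.7% in the upper molar. In the full lists it ran from 23.3% in the incisor to 63.4% in ectoderm replicate 2. Start peaks at mesenchyme markers numbered 3 and 5 of 8 in the ectoderm, 8 and 7 in Sox2-positive cells, 8 in the incisor and 5 in each molar of the equal lists, and their part in these differences was not tested.

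**Figure D2:**
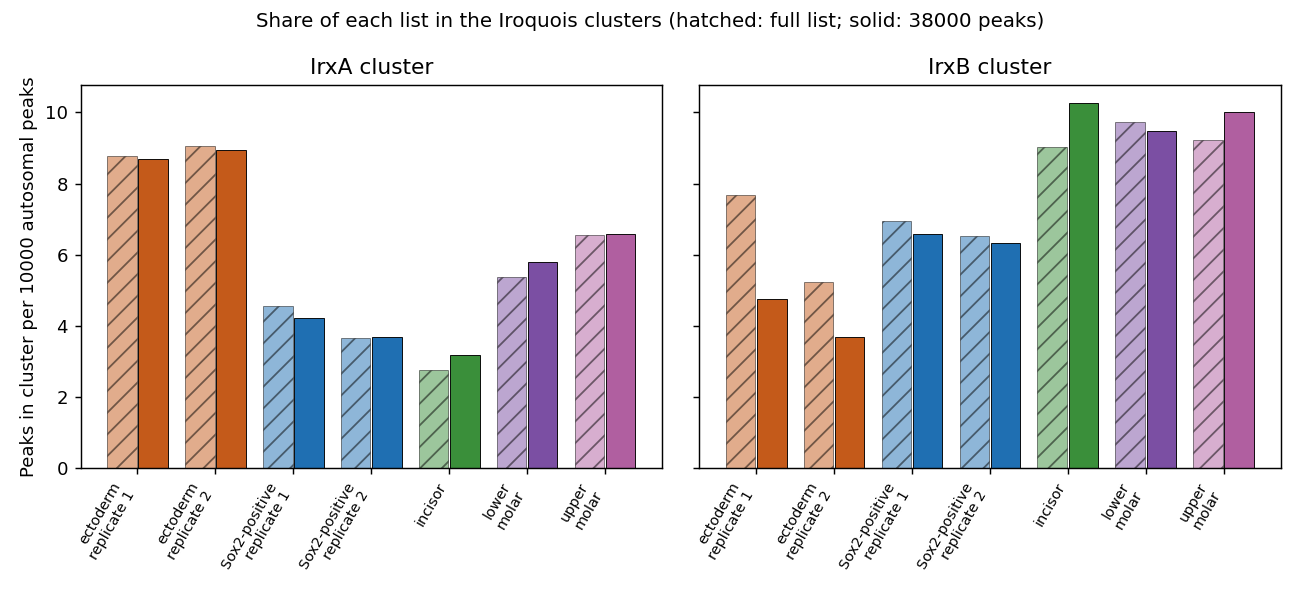
Peaks in the IrxA (left) and IrxB (right) cluster per 10000 autosomal peaks, 1 pair of bars per library, hatched for the full list and solid for the 38000 peaks with the highest −log10 p. The ectoderm bars are the highest in IrxA and the whole-tooth bars the highest in IrxB.

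Other homeobox clusters, counted by the same rule in the equal lists, had ratios on both sides of the IrxA ratio and all above the IrxB ratio. Ectoderm to Sox2-positive ratios were 0.964 for Dlx1-Dlx2, 0.696 for Dlx5-Dlx6 and 0.667 for Dlx3-Dlx4, the paired genes of jaw patterning. They were 1.88 for Hoxa, 3.25 for Hoxb, 5 for Hoxc and 2 for Hoxd, from 1 to 7.5 peaks on average per group. The IrxA ratio of 2.23 was within the range of the Hox clusters. The IrxB ratio of 0.653 was the lowest of the 9 in these lists, just under that of Dlx3-Dlx4. The lowest place of IrxB was not kept in other lists. In the full lists its ratio was 0.959, above Dlx1-Dlx2 (0.737), Dlx5-Dlx6 (0.650) and Dlx3-Dlx4 (0.596). In the equal lists by signal it was 0.68, above Dlx5-Dlx6 (0.667) and below Dlx3-Dlx4 (0.7). No difference between clusters was tested.

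A larger share of IrxA regions than of all regions was open in the ectoderm without the Sox2-positive cells. Of 77 IrxA regions with a peak in any of these 4 libraries, 32 (41.6%) had one in both ectoderm replicates and in neither Sox2-positive replicate, against 23.1% of such regions on all autosomes. In IrxB it was 15 of 86 (17.4%). The counts at equal length were 16 of 46 (34.8%) in IrxA and 7 of 42 (16.7%) in IrxB, against a background of 18.4%. The IrxA share was above the background under both lengths, and the IrxB share was below it. Without ectoderm replicate 2, whose list is the shorter, the counts were 58 of 78 (74.4%) in IrxA and 50 of 85 (58.8%) in IrxB, beside 51.5% on all autosomes, and both shares were then above the background. Without ectoderm replicate 1 they were 33 of 53 (62.3%) and 17 of 52 (32.7%), beside 33.6%.

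Sox2-positive-only regions numbered 4 of 77 (5.19%) in IrxA and 9 of 86 (10.5%) in IrxB, against 7.78% on all autosomes. The equal lists gave 4 of 46 (8.70%) and 10 of 42 (23.8%), against 14.4%. Without Sox2-positive replicate 1 the IrxB count was 15 of 78 (19.2%), beside 15.3%, and without replicate 2 it was 17 of 80 (21.2%), beside 14.7%. Without replicate 2 the IrxA count was 7 of 77 (9.09%). Regions open in all 7 libraries were few in both clusters: 8 of 91 (8.79%) in IrxA and 7 of 117 (5.98%) in IrxB, beside 14.2% of all regions. At equal length they were 6 of 53 and 6 of 67, beside 19.2%. Under both lengths the IrxA counts include 2 regions beyond Irx4, at the neighbouring protein-coding genes Ndufs6 and Mrpl36.

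**Figure D3:**
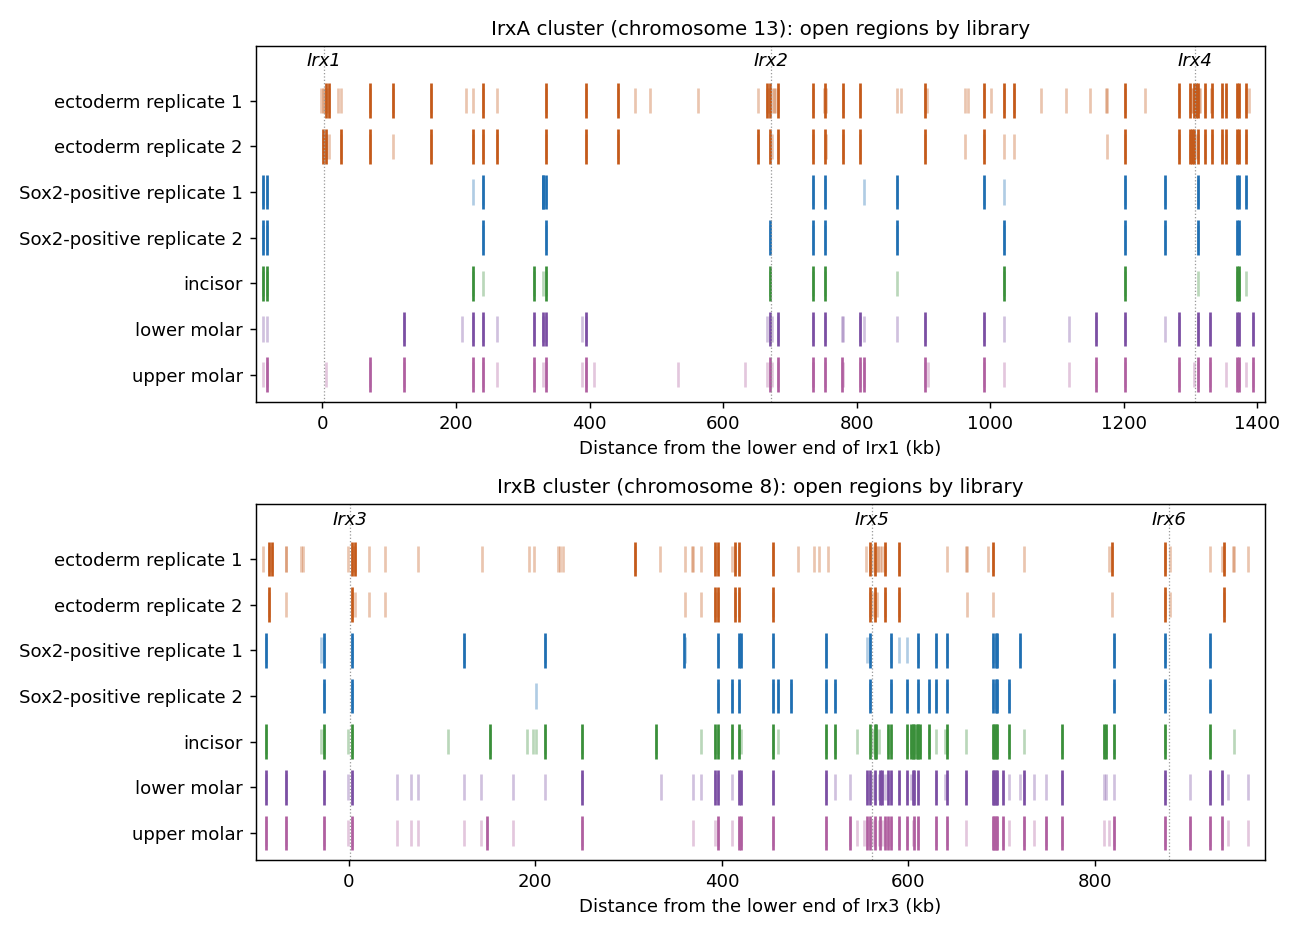
Open regions along the IrxA (top) and IrxB (bottom) cluster, 1 row per library, by distance in kb from the lower end of the first gene, with dark ticks for peaks in the equal lists, pale ticks for peaks only in the full list, and dotted lines at the genes. IrxA ticks are densest in the ectoderm rows, and IrxB ticks crowd between Irx5 and Irx6 in the postnatal rows.

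The ectoderm-only regions of IrxA lay between and within its genes and beyond Irx4, with none in the 100 kb outside Irx1. Between Irx1 and Irx2 there were 10 and between Irx2 and Irx4 there were 11, with 3 in the Irx1 body, 1 in the Irx2 body, 3 in the Irx4 body and 4 beyond Irx4. The 16 of the equal lists comprised 5, 6, 0, 0, 1 and 4 in the same order, with none left in the Irx1 body. The highest by mean rank of signal in the ectoderm lists was chr13:72352628-72353448, 271 kb from Irx2, with signals of 2692 and 2070 in ectoderm and 707 and 1010 in lower and upper molar. The next, chr13:72120600-72121891, 158 kb from Irx1, had 2882 and 1917 in ectoderm and no peak in any postnatal library. The third, chr13:73262730-73264236, inside the Irx4 gene body, had 1885 and 1881 in ectoderm and 245 in the upper molar. None of these 3 had a peak in the incisor.

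That held for the class. Of the 32 IrxA ectoderm-only regions, 0 had a peak in the incisor, 8 in the lower molar and 12 in the upper molar. Over all ectoderm-only regions of the autosomes the shares were 13.4%, 27.5% and 28.4%. Of the 16 in the equal lists, 0, 5 and 6 had one, beside shares of 4.94%, 13.0% and 14.2%. The molars shared part of the ectoderm set of IrxA under both lengths. The incisor shared none of it, and its background share in the equal lists is itself low. The class leaves out regions with a peak in Sox2-positive cells, which came from the lower incisor, so its definition may lower the incisor share. The 15 IrxB ectoderm-only regions had a peak in 3, 5 and 4 cases.

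The next class separates the molars from the incisor by its definition, so only its size beside the background is read. Open in both ectoderm libraries and both molars, but in no Sox2-positive or incisor library, were 8 of 91 IrxA regions (8.79%), beside 2.36% of all regions, and 2 of 117 in IrxB (1.71%). With equal lists they were 5 of 53 (9.43%), beside 1.2%, and 1 of 67 (1.49%). Open in both ectoderm libraries and in no postnatal library were 20 of 91 IrxA regions (22.0%) and 10 of 117 in IrxB (8.55%), beside 11.7%. The equal lists gave 10 of 53 (18.9%) and 3 of 67 (4.48%), beside 12.8%.

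Between whole teeth, 18 of the 48 IrxA regions seen in any of them (37.5%) were in both molars and not in the incisor, beside 17.9% of regions on all autosomes, and 0 of 48 were in the incisor alone, beside 13.9%. The equal lists gave 12 of 28 (42.9%) beside 16.4% and 2 of 28 (7.14%) beside 18.5%. The strongest molar regions were chr13:72948259-72949250, 311 kb from Irx4, with signals of 1563 and 1817 in lower and upper molar, and chr13:72639416-72640436, 5.73 kb from Irx2, with 1296 and 1501. Both were open in the ectoderm too, the first at 569 and 365 and the second at 1869 and 1450. The first also had a peak of 265 in Sox2-positive replicate 1. The next region, chr13:72763080-72763816, 129 kb from Irx2, had 1941 and 1330 in the ectoderm and 931 and 1101 in the molars.

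In IrxB the teeth differed less in 1 direction. Of 82 regions seen in any whole tooth, 21 (25.6%) were in both molars without the incisor, beside 17.9% on all autosomes. In the incisor without the molars were 13 (15.9%), beside 13.9%. Equal lists gave 9 of 55 (16.4%), no different from the 16.4% on all autosomes, and 13 of 55 (23.6%), beside 18.5%. The highest of the molar regions, chr8:92500026-92500798, had signals of 1097 and 1204 in lower and upper molar and no peak elsewhere. The highest of the incisor regions, chr8:92420561-92421117, had 924 in the incisor and 313 in Sox2-positive replicate 2. With 1 library per tooth none of these differences has a replicate check.

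Regions seen in 1 molar without the other were counted last, with no replicate behind either tooth. The lower molar had 4 of 48 IrxA regions and 8 of 70 IrxB regions that the upper molar lacked, beside 12.3% on all autosomes. The upper molar had 11 of 48 (22.9%) and 4 of 70 (5.71%) that the lower lacked, beside 10.3%. At equal length the lower molar had 1 of 26 and 4 of 42 such regions and the upper molar 4 of 26 and 6 of 42, both beside 10.3%, so that the order of the molars in IrxB turned.

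**Figure D4:**
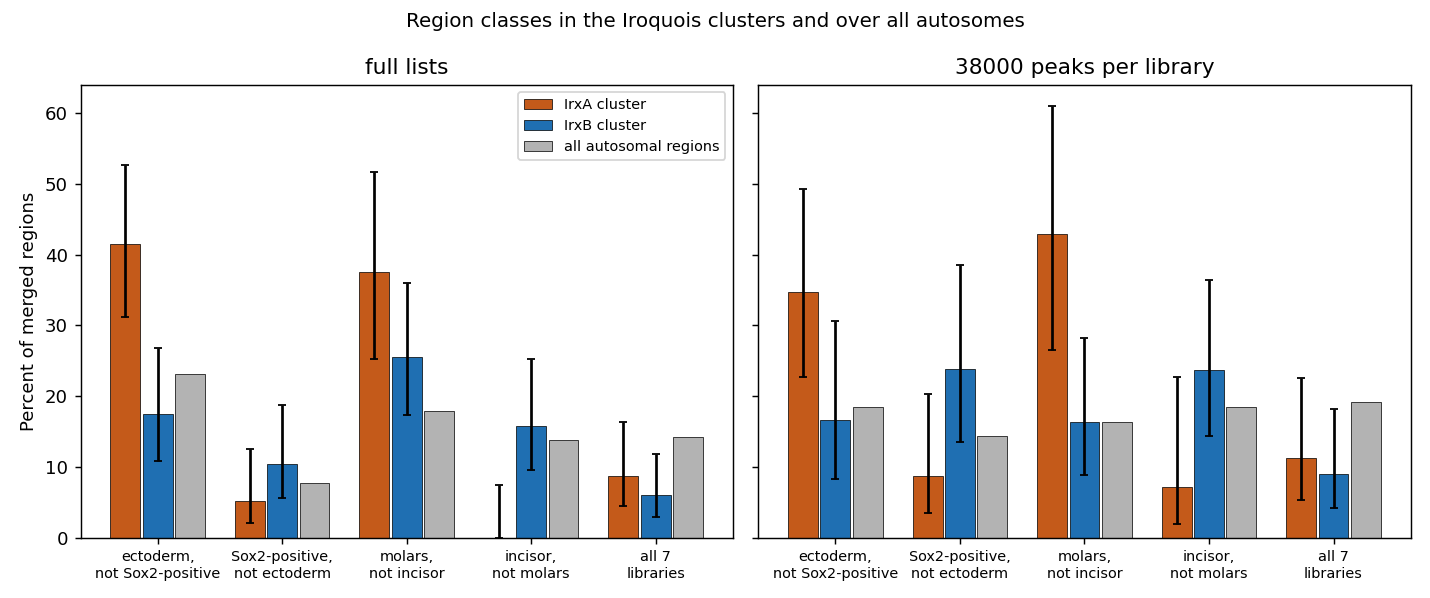
Percent of merged regions in 5 classes of presence across libraries for the IrxA cluster, the IrxB cluster and all autosomes, with full lists on the left and equal lists on the right; error bars are 95% Wilson intervals over regions, which are not replicates. IrxA stands above the autosomal bar for regions of ectoderm without Sox2-positive cells (41.6% against 23.1%) and of molars without incisor (37.5% against 17.9%).

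The difference of IrxB between tissues at equal length was widest between Irx5 and Irx6, a 313 kb interval. It held 16 and 8 peaks in the ectoderm replicates, 13 and 12 in the Sox2-positive replicates, and 28, 32 and 29 in incisor, lower and upper molar. In the equal lists these were 6 and 4, then 11 and 12, then 23, 21 and 21, so that each of the 3 groups of libraries stood apart from the others. Between Irx3 and Irx5, the longer interval of 556 kb, the full lists held 29 and 12, then 11 and 10, then 20, 23 and 21, and the equal lists 8 and 7, then 10 and 9, then 12, 9 and 10. There the ectoderm replicates spanned the other libraries in the full lists, and at equal length the tissues spread over 7 to 12 peaks against 4 to 23 beyond Irx5.

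**Figure D5:**
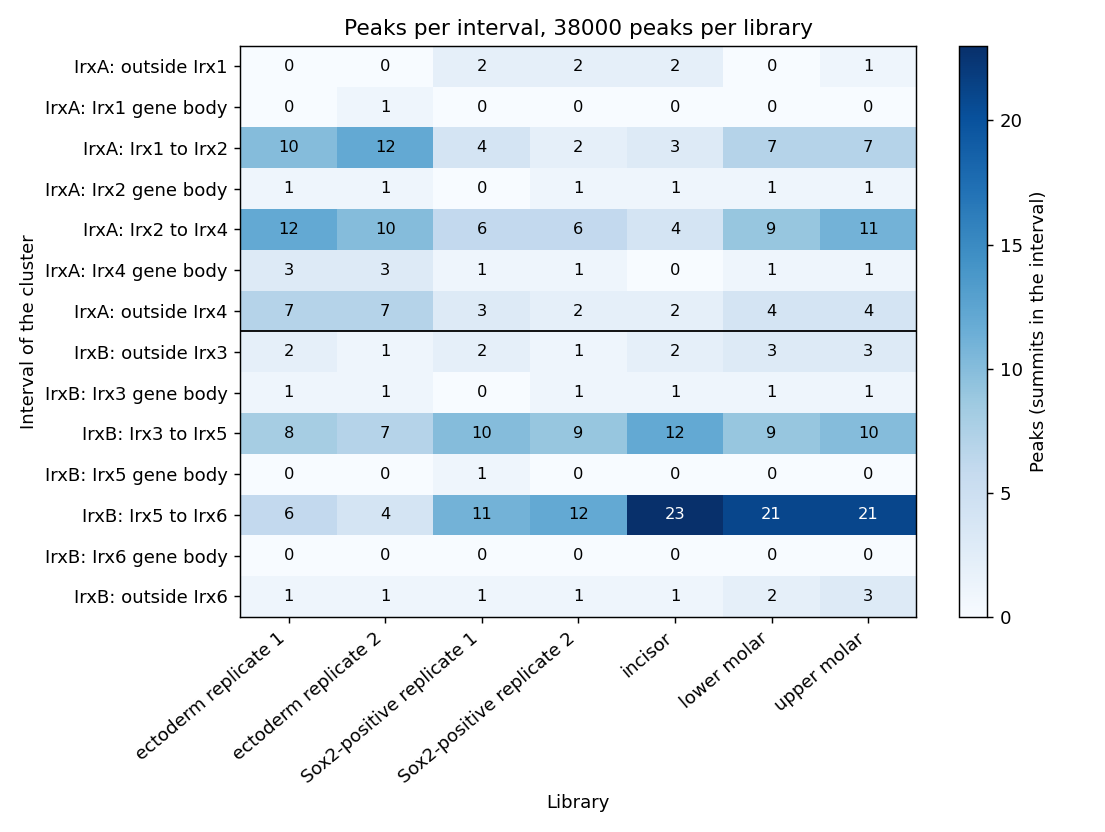
Number of peaks (by summit) in each gene body, intergenic interval and outer flank of the 2 clusters, 38000 peaks per library, 1 column per library, darker for more peaks. The Irx5 to Irx6 row runs from 4 and 6 in the ectoderm to between 21 and 23 in the whole teeth, and the Irx1 to Irx2 row runs from 10 and 12 in the ectoderm to between 3 and 7 in the whole teeth.

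Of the 9 IrxB regions that were only in Sox2-positive cells, 7 lay between Irx5 and Irx6, and all 9 also had a peak in every whole tooth. On all autosomes 91.7%, 86.6% and 84.6% of Sox2-positive-only regions had a peak in incisor, lower and upper molar, so that presence in the teeth was common to the class. The same 9 were the 9 of 117 IrxB regions (7.69%) open in all postnatal libraries and in no ectoderm library, beside 4.61% of all regions, against 3 of 91 (3.30%) in IrxA. At equal length these counts were 8 of 67 (11.9%) and 0 of 53, beside 6.29%. The highest was chr8:92407899-92409196, 47.1 kb beyond Irx5, with signals of 2381 and 2878 in the Sox2-positive replicates and 4044, 5880 and 5928 in incisor, lower and upper molar. The next, chr8:92491430-92492224, had 989 and 1860, then 3498, 2625 and 2037. The third, chr8:91772021-91772749, 26.1 kb outside Irx3, had 676 and 444, then 913, 1126 and 1044.

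Regions open in all 3 whole teeth and in none of the other 4 libraries were 8 of 117 in IrxB (6.84%), 7 of them between Irx5 and Irx6, beside 3.94% of all regions, and 1 of 91 in IrxA. With equal lists they were 5 of 67 (7.46%) and 1 of 53, beside 1.77%. The whole incisor, set against Sox2-positive cells of the same tooth, had 28 of 63 IrxB regions (44.4%) that both Sox2-positive replicates lacked, beside 29.9%, and 0 of 63 were in both Sox2-positive replicates without the incisor, beside 1.87%. In IrxA each direction had 1 of 21. The equal lists gave 16 of 47 (34.0%) in IrxB and 2 of 20 in IrxA for incisor without Sox2-positive cells, beside 12.2%, and 1 of 47 and 4 of 20 for the reverse, beside 7.1%. Mesenchyme markers with a start peak numbered 8 in the incisor and 8 and 7 in the Sox2-positive replicates, and the part of other cell types in the result was not tested.

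The regions shared by all 7 libraries included the Irx5 start, chr8:92355520-92358689, the broadest of either cluster at 3170 bp. The Irx3 start, chr8:91800651-91803235, was next in IrxB at 2585 bp. The third was chr8:92193533-92194752, 164 kb from Irx5, with signals of 1982 and 1440 in the ectoderm, 1342 and 1278 in Sox2-positive cells, and 2029, 3523 and 3501 in incisor, lower and upper molar. In IrxA no member start was shared by all. Its leading shared regions were chr13:72291803-72292913, between Irx1 and Irx2, with 3318 and 2996, then 1590 and 1028, then 1132, 2881 and 2760, and chr13:73159429-73160759, 99.5 kb from Irx4, with 4246 and 3036, then 855 and 804, then 889, 1355 and 1505. The region chr13:73327873-73328874 lay at the starts of Ndufs6, a subunit of respiratory complex I, and Mrpl36, a mitochondrial ribosomal protein. Region widths in the clusters had medians of 542 bp in IrxA and 543 bp in IrxB, beside 511 bp on all autosomes.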

How the data were processed

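Peaks were called with Genrich on mm10, after FastQC, Trimmomatic, Bowtie2 and deepTools, per the submitters' processing notes, which give no versions or settings used here. The 7 deposited lists hold a signal (peak area) and a −log10 p value per peak, as the authors made them, with 1 list per library and no read counts, so depth is unknown. Chromosomes 1 to 19 were used. A peak was placed by its summit and a merged region by its centre, and a library had a region if its peaks touched 1 bp of it. Groups and replicate numbers came from sample titles. Peak rates were compared by an exact permutation test of 2 against 2 libraries (3 splits, smallest two-sided p 0.333), and regions were counted beside all autosomal regions without a test. Gene positions came from RefSeq GRCm38.p6, the patch release of the same build. Named items were all members, neighbouring genes, the 3 regions with the highest mean signal rank per cluster and class, and the 2 genes per cluster most alike in peak counts (at least 20 peaks). Members and lists were chosen with earlier results of these data known. Alternatives were equal lists by −log10 p or by signal, flanks of 50 or 500 kb, summit windows of 200 bp, 50% coverage, start windows of 2.5 kb, a replicate block and leaving out each replicate. Counting was tested on simulated lists. Python 3.11.15, numpy 2.4.6 and scipy 1.17.1 were used.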

Additional observations from a re-analysis of the deposited data

How the results depend on the processing

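The IrxA excess of ectoderm peaks over Sox2-positive cells kept its direction under every alternative listed for it. Among these, the replicate block could not change it, because pairing leaves a mean difference as it is. The labels also do not link ectoderm and Sox2-positive libraries of the same number. The IrxB difference of -0.279 turned to 3.09 with flanks of 500 kb, which take in Fto, and ran from -1.50 to 0.941 when each replicate was left out. With the replicate block, which pairs libraries by number, the differences were 4.82 (exact p = 0.5, the smallest it allows) for IrxA and -0.279 (exact p = 1) for IrxB. Ectoderm-only regions were 16 (equal lists by −log10 p), 19 (by signal) and 33 to 58 (replicates left out) in IrxA, and 7, 8, 44 (500 kb) and 15 to 50 in IrxB. Sox2-positive-only regions were 2 (50 kb), 9 (500 kb), 2 (summit windows) and 4 to 7 (replicates left out) in IrxA, and 14 (500 kb) and 9 to 17 in IrxB. Regions in all 7 libraries were 15 (500 kb), 5 (summit windows) and 4 (50% covered) in IrxA, and 15 and 4 (500 kb, 50% covered) in IrxB. Molar regions absent from the incisor were 9 (by signal) in IrxA, and 9, 8 and 39 (by −log10 p, by signal, 500 kb) in IrxB. Incisor regions absent from the molars were 2, 1, 2 and 3 (by −log10 p, by signal, 500 kb, summit windows) in IrxA. Shorter lists, wider domains and fewer libraries hold other numbers of peaks, and the cause of these shifts was not tested. The remaining 73 values for these results stayed on the same side or within 1.5 times.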

Other observations

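Fto, the RNA demethylase gene next to IrxB whose introns are known to hold elements that contact Irx3, lies outside the 100 kb domain. Its body held 41 and 26 peaks in the ectoderm replicates, 12 and 10 in the Sox2-positive replicates, and 18, 32 and 29 in incisor, lower and upper molar. Counted within 100 kb of its body, Fto had 6.43 and 6.03 peaks per 10000 in the ectoderm, 4.06 and 3.91 in Sox2-positive cells, and 4.35, 5.66 and 5.51 in the teeth, so that both ectoderm libraries stood above the other 5. In the equal lists these were 6.32 and 5.79, then 3.42 and 3.95, then 3.68, 4.47 and 5, with the same separation. Irx3os, a long non-coding RNA gene next to Irx3, had 5 and 3 peaks in its body in the ectoderm in the full lists. There it had 0 in both Sox2-positive replicates and the incisor, and 3 in each molar. In the equal lists only ectoderm replicate 1 kept a peak in that body, at chr8:91805279-91805800, so the likeness of ectoderm and molars was not kept. Crnde, a long non-coding RNA gene that borders the Irx5 start, had a start peak in all 7 libraries, where the peak cannot be assigned to either gene. Ndufs6 and Mrpl36, the protein-coding neighbours beyond Irx4, also had start peaks in all 7.

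Of 12 other TALE homeobox genes, 11 or 12 had a start peak in each full list (10 to 12 in the equal lists), and Meis2, a cofactor of Hox and Pbx proteins, was the missing one in both Sox2-positive replicates, the incisor and the upper molar. Within 100 kb of Meis2 there were 38 and 23 peaks in the ectoderm, 3 and 4 in Sox2-positive cells, and 6, 16 and 12 in incisor, lower and upper molar. In the equal lists these were 22 and 18, then 3 and 4, then 2, 4 and 4, and the start peak was missing in the lower molar too. As in IrxA, both ectoderm libraries were above every postnatal one. The autosomal genes whose peak counts in the equal lists were most like those of IrxA over the 7 libraries were Rps13 (Pearson r 0.989) and Snd1 (0.987), with 455 of 15596 genes above 0.9. For IrxB they were Mgat5 and Cert1 (both 0.983), with 245 above 0.9. The points are the same 7 libraries for every gene, and the likeness is given as a description.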
